A study of Mus musculus with 9 samples.

Results

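The genes described here serve the red cell lineage, and were measured in thymic stromal cells from which cells bearing CD45 had been depleted. They were Hba-a1 and Hbb-b1 (adult globins), Klf1 and Gata1 (transcription factors), Epor (erythropoietin receptor), Alas2 (heme synthesis), Slc4a1 (red cell membrane), Ahsp (globin chaperone) and Tfrc (iron uptake). A probe set, the group of probes that the array reads as one transcript, was taken where it was annotated to exactly 1 gene symbol and that symbol was one of these 9. This gave 14 probe sets of 7 genes, out of 34958 probe sets of 18194 genes with a single symbol on the array. Hbb-b1 had only a probe set shared with other globin genes, and Ahsp was not analysed here.

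Each of 3 groups held 3 arrays, for mice left untreated and for mice taken 4 or 7 days after SL-TBI, an irradiation of 550 cGy from a cesium source given with no hematopoietic rescue. All were female C57BL/6J mice of 6-8 weeks. Cells of several mice were pooled for every sample, and the treatment protocol names the pooled cells as thymic ECs without spelling that abbreviation out. The labels do not say that replicates were separate pools, so the p-values measure only the spread between these samples, which may be technical. Each sample was hybridised to 1 Affymetrix mouse expression array, and all values are on a log2 scale on which the lowest value in the table was 2.27 and the highest 15.52. A probe set below 4 on every array is called undetected, which is a statement about its signal and does not measure absence of the transcript.

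As background, red cells form when erythroid progenitors answer erythropoietin through its receptor, which signals through Jak2 and Stat5. Gata1 and Klf1 then drive the late genes, of which Alas2 starts heme synthesis, the globin genes supply the protein chains of hemoglobin, Ahsp shields free alpha-globin, and Slc4a1 encodes band 3, the anion exchanger of the red cell membrane. Tfrc takes up iron for heme and is abundant on erythroblasts, but dividing cells of many kinds, thymocytes among them, use it too. Maturing red cells lose CD45, so depletion with an antibody to CD45 is not aimed at them, and young red cells still hold globin mRNA. The sources used here do not say whether red cells were lysed.

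The stretches of 250 bases before the start of transcription are shown for Alas2, Hba-a1, Hbb-bs and Tfrc, since these genes or the probe sets that cover them carry the changes described below. Hbb-bs, an adult beta-globin gene of the C57BL/6J strain, was not one of the 9 genes and stands for the shared beta-globin probe set. The sequences are those of RefSeq on GRCm38.p6, each 5′ to 3′ on the strand of its gene, and for Tfrc the more upstream of 2 annotated starts was used. Capitals mark matches, on either strand, to the GATA motif (AGATAA and also TGATAA, both of which hold the core GATAA), to the CACCC motif and to its longer Klf1-type form CCNCNCCC. Matches to the last pair of motifs can overlap.
Alas2, chrX:150547167-150547416, plus strand: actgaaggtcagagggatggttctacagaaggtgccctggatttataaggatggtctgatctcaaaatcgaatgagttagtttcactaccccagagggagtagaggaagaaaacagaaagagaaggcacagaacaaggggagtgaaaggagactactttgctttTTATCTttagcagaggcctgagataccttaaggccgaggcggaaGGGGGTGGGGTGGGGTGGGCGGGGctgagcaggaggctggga
Hba-a1, chr11:32283422-32283671, plus strand: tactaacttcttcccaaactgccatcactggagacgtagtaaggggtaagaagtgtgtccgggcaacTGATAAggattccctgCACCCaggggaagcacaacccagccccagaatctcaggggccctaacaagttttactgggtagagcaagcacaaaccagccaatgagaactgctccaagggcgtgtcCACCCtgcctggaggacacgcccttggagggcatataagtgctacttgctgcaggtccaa
Hbb-bs, chr7:103827929-103828178, minus strand: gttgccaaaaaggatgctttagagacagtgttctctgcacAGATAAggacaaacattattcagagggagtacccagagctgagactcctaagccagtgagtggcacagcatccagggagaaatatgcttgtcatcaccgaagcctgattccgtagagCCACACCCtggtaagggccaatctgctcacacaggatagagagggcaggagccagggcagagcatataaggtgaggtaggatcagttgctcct
Tfrc, chr16:32608646-32608895, plus strand: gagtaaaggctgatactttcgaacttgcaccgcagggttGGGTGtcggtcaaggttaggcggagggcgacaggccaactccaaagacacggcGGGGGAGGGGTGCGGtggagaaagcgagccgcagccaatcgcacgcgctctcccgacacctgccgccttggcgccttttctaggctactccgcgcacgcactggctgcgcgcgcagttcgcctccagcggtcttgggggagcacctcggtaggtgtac

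The Alas2 stretch held 1 GATA motif, on the opposite strand and beginning 86 bases before the start, with 4 CCNCNCCC and 3 CACCC matches closer to the start. In Hba-a1, TGATAA began 183 bases and CACCC 167 and 60 bases before the start. In Hbb-bs, AGATAA began 210 bases before the start, and 1 CCNCNCCC and 1 CACCC match overlapped each other. The window of Hbb-bt, a gene of the same shared probe set, is not shown. It held no AGATAA or TGATAA, 1 GATAA, 1 CCNCNCCC and 3 CACCC matches. Tfrc held no GATAA in this window, with 3 CCNCNCCC and 2 CACCC matches, all on the opposite strand. Among the 32851 promoter windows of this length in the same table, 16.6% held AGATAA or TGATAA, 22.6% GATAA, 45.9% CCNCNCCC and 52.0% CACCC. These matches describe the letters of the windows and were not tested as binding sites.

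Regulators of the lineage were undetected, together with some probe sets of genes that another probe set detected. Of the 14 probe sets, 10 were undetected and 4 were detected. Testing required 4 or more on at least 3 arrays. These 10 did not reach that, nor did 17132 of all 34958 single-symbol probe sets. Klf1, Epor, Gata1 and the single-symbol probe set of Hba-a1 stayed between 2.27 and 2.42 on all 9 arrays, with no level to compare between groups. The highest of these values was 2.42, for Gata1 in day 7 replicate 2. Further undetected probe sets belonged to Slc4a1 (1 of its 3) and to Tfrc (2 of its 3 regular probe sets and 3 array control probe sets), and their highest value was 2.93, in untreated replicate 3. Of the 10 undetected probe sets, 7 lay within 0.01 of the lowest value on every array.

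**Figure D1:**
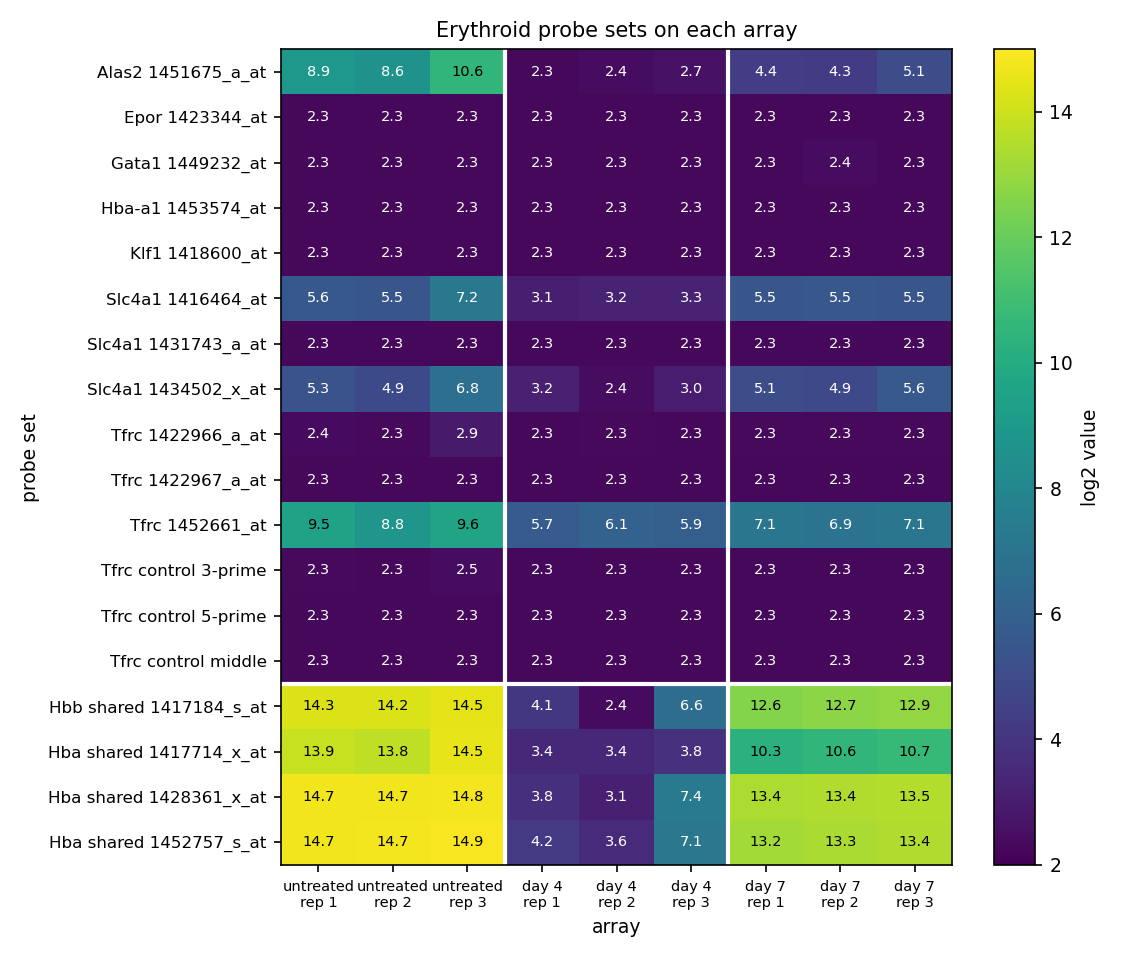
Log2 value of each of the 14 probe sets (upper rows) and of the 4 probe sets shared by several adult globin genes (lower rows) on each of the 9 arrays (columns: untreated, day 4 and day 7, replicates 1 to 3); colour gives the value. Alas2, 2 Slc4a1 probe sets, 1 Tfrc probe set and the shared globins carry signal, which is lowest at day 4, and 10 probe sets stay below 4 on every array.

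Alas2, Slc4a1 and Tfrc were lower at day 4 than in untreated samples, and all were higher at day 7 than at day 4. At day 7 Alas2 and Tfrc were lower than in untreated samples, while the differences of Slc4a1 from untreated did not pass the test. At day 4 each of the 4 detected probe sets was called lower, in a comparison in which 61.4% of the 17826 probe sets tested were called and 22.9% were called lower. The corresponding shares were 52.5% and, lower, 22.4% for day 7 against untreated, and 24.4% and, higher, 9.91% for day 7 against day 4. The median difference over all probe sets tested was 0.16, 0.08 and -0.08 in the same order. In such bulk samples, fewer cells of a type and less RNA per cell cannot be told apart.

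Alas2 (chrX:150547417-150570622), the erythroid form of the first enzyme of heme synthesis, read 8.93, 8.64 and 10.57 in untreated samples, 2.27, 2.42 and 2.65 at day 4, and 4.36, 4.32 and 5.09 at day 7. The 3 groups did not overlap, which held for 66.6% of all probe sets tested between day 4 and untreated, 61.1% between day 7 and untreated and 48.8% between day 7 and day 4. Every day 4 array lay below the detection level, and untreated replicate 3 stood highest. The mean was 2.45 ± 0.19 at day 4 and 9.38 ± 1.04 in untreated samples (SD, n = 3 each), a difference of -6.93 (SE 0.45, limma adjusted p 4.2e-06). Since day 4 was below detection, the level was at least 41.6-fold lower there, or at least 27.6-fold lower without untreated replicate 3. At day 7 the mean was 4.59 ± 0.43, a difference from untreated of -4.79 (27.7-fold lower, adjusted p 7.6e-05), or -4.20 without untreated replicate 3. Against day 4, Alas2 at day 7 was higher by 2.14 (SE 0.45, adjusted p 0.010), and at least 1.505-fold higher by the bound. That last call was lost when dim probe sets were also tested (adjusted p 0.061).

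Slc4a1 (chr11:102348820-102365281) was read by 2 detected probe sets, which moved alike. The brighter one, 1416464_at, read 5.57, 5.47 and 7.22 in untreated samples, 3.09, 3.23 and 3.29 at day 4, and 5.47, 5.52 and 5.47 at day 7. The day 4 arrays were all below the detection level and below every other array, whereas the day 7 arrays lay at the values of untreated replicates 1 and 2. The other, 1434502_x_at, read 5.34, 4.95 and 6.77 in untreated samples, 3.19, 2.44 and 2.99 at day 4, and 5.09, 4.89 and 5.64 at day 7. Day 4 differed from untreated by -2.88 (SE 0.39, adjusted p 2.5e-04) and -2.81 (SE 0.43, adjusted p 5.3e-04), at least 4.24-fold and 3.21-fold lower. Without untreated replicate 3 these bounds were 2.86-fold and 2.20-fold. Day 7 differed from day 4 by 2.29 (adjusted p 0.0043) and 2.33 (adjusted p 0.0066), at least 2.80-fold and 2.31-fold higher. Between day 7 and untreated, the differences of -0.60 (SE 0.39, adjusted p 0.224) and -0.48 (SE 0.43, adjusted p 0.383) did not pass the test and the groups overlapped. Without untreated replicate 3 they were -0.031 and 0.067.

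Tfrc (chr16:32608896-32632794), the receptor that brings transferrin-bound iron into cells, was detected on every array by 1452661_at. It read 9.47, 8.80 and 9.61 in untreated samples, 5.72, 6.10 and 5.94 at day 4, and 7.13, 6.93 and 7.08 at day 7. No 2 groups overlapped, and unlike Alas2 and Slc4a1 this gene kept a measurable level at day 4. The mean was 5.92 ± 0.19 at day 4 and 9.30 ± 0.43 in untreated samples, a 10.4-fold lower level (difference -3.38, SE 0.20, adjusted p 2.5e-06). At day 7 the mean of 7.05 ± 0.10 was 4.75-fold lower than untreated (difference -2.25, SE 0.20, adjusted p 6.3e-05) and 2.18-fold higher than at day 4 (difference 1.13, SE 0.20, adjusted p 0.0054). The other regular Tfrc probe sets were undetected, and averaging all 3 gave differences of -1.21, -0.83 and 0.38 for the 3 comparisons, all still called.

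**Figure D2:**
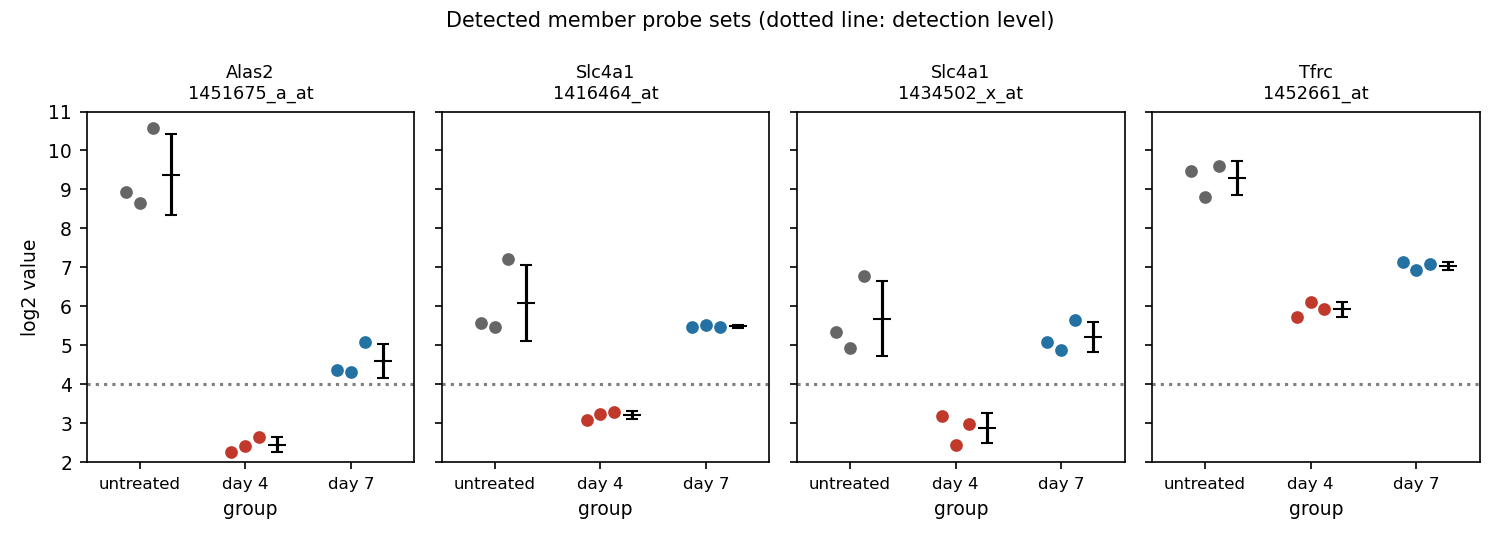
Log2 values of the 4 detected probe sets on each array (points) with the mean and SD (bars, n = 3) for untreated, day 4 and day 7; the dotted line is the detection level of 4. Alas2 and both Slc4a1 probe sets fall below the line at day 4, Tfrc stays above it, and Slc4a1 at day 7 overlaps untreated replicates 1 and 2.

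Transcripts of thymocytes and of dividing cells moved in the same directions, and both kinds of cell use Tfrc. All 9 tested thymocyte markers were lower at day 4 and at day 7 than in untreated samples, and their mean per array was 9.996 to 10.37 in untreated samples, 3.68 to 4.11 at day 4 and 7.504 to 7.71 at day 7. Among them Ptprc, which encodes CD45, read 12.25, 11.96 and 12.45 in untreated samples, 4.18, 4.52 and 5.22 at day 4, and 9.63, 9.26 and 9.64 at day 7. How completely CD45-bearing cells were removed in each group was not tested. Cd4 reached 4 on the untreated arrays only. It entered the test through them, so its direction among the 9 was set by the filter and is not support. Over all genes 21.0% were called lower at day 4 and 21.7% at day 7. All 9 tested markers of dividing cells were also lower in both comparisons, with array means of 8.66 to 9.31 in untreated samples, 3.56 to 3.89 at day 4 and 7.11 to 7.38 at day 7. At day 7, 8 thymocyte and 9 dividing cell markers were higher than at day 4, where 9.34% of all genes were called higher. The part of these cells in the Tfrc, Alas2 and Slc4a1 results was not tested. Gata1 also serves megakaryocytes, mast cells and eosinophils. Over the array, 10942 of 18194 genes with a single symbol had a tested probe set. Among markers with a probe set, 5 of 6 megakaryocyte, 7 of 8 mast cell and 3 of 4 eosinophil genes were undetected as well. Of the remaining 3, Pf4 of megakaryocytes did not pass the test, and Hdc of mast cells and Prg2 of eosinophils were lower at day 4 and at day 7. Among macrophage markers, Spic and Cd163, which mark macrophages that clear red cells or hemoglobin, were undetected, as were Adgre1 and Cd68. Of the 4 tested, Mertk was higher at day 4 by 1.22 and at day 7 by 1.71, Vcam1 was higher by 0.38 and 0.28, Hmox1 is described below, and Csf1r, detected on every array, differed by -0.35 and 0.22 without passing. With untreated replicate 3 left out, Vcam1 did not pass at day 7 (adjusted p 0.125).

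Adult globin transcripts gave high signals in untreated samples and at day 7 and low ones at day 4. Their probe sets are shared between near-identical genes, so no single globin gene can be named. They fall outside the single-symbol rule, and were tested in a separate limma fit of all probe sets with at least 1 symbol, chosen after their values were seen. In that fit 61.2%, 52.2% and 24.4% of probe sets were called in the 3 comparisons. The probe set annotated to Hbb-bt, Hbb-bs, Hbb-b2 and Hbb-b1 read 14.29, 14.25 and 14.47 in untreated samples, 4.11, 2.38 and 6.64 at day 4, and 12.59, 12.72 and 12.88 at day 7. Of the 3 probe sets annotated to both Hba-a1 and Hba-a2, 1417714_x_at read 13.92, 13.76 and 14.50 in untreated samples, 3.42, 3.42 and 3.84 at day 4, and 10.28, 10.57 and 10.69 at day 7. The second, 1428361_x_at, read 14.73, 14.74 and 14.79 in untreated samples, 3.82, 3.13 and 7.42 at day 4, and 13.38, 13.45 and 13.52 at day 7. The remaining one, 1452757_s_at, read 14.72, 14.75 and 14.85 in untreated samples, 4.19, 3.59 and 7.15 at day 4, and 13.17, 13.33 and 13.44 at day 7. All day 4 values were far below both other groups. Groups did not overlap for 66.5% of all probe sets in this fit between day 4 and untreated, and for 48.9% between day 7 and day 4. Day 4 replicate 3 was the highest of its group on each probe set.

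At day 4 the shared beta-globin probe set differed from untreated by -9.96 (SE 0.84, adjusted p 1.9e-05). The 3 alpha-globin probe sets differed by -10.49 (adjusted p 5.0e-09), -9.97 (adjusted p 2.7e-05) and -9.80 (adjusted p 1.1e-05). For 1417714_x_at, undetected on all day 4 arrays, the level was at least 1065-fold lower at day 4. Without day 4 replicate 3 the beta-globin difference was -11.09 and the alpha-globin differences were -10.63, -11.28 and -10.88. Between day 7 and day 4 the beta-globin probe set was higher by 8.35 (adjusted p 3.5e-04) and 1428361_x_at and 1452757_s_at by 8.66 and 8.34 (adjusted p 4.1e-04 and 1.7e-04). By the bound, 1417714_x_at was at least 91.3-fold higher at day 7 (adjusted p 3.0e-07).

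At day 7 the 4 shared probe sets lay below every untreated array, in a comparison in which 60.9% of probe sets did not overlap between groups. The differences were -1.61 for beta-globin and -3.54, -1.31 and -1.46 for the alpha-globin probe sets. Only the -3.54 of 1417714_x_at passed the test in the fit of all 9 arrays (11.7-fold lower, adjusted p 9.6e-06), against adjusted p 0.137, 0.249 and 0.130 for the others. In that fit the wide day 4 spread enters the error. With only the 6 arrays compared, all 4 passed, with adjusted p of 3.8e-04 for beta-globin and 2.5e-04, 3.1e-04 and 3.8e-04 for alpha-globin. Untreated values near 14.8 stood close to the top of the scale at 15.52, and whether these probe sets were saturated was not tested.

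**Figure D3:**
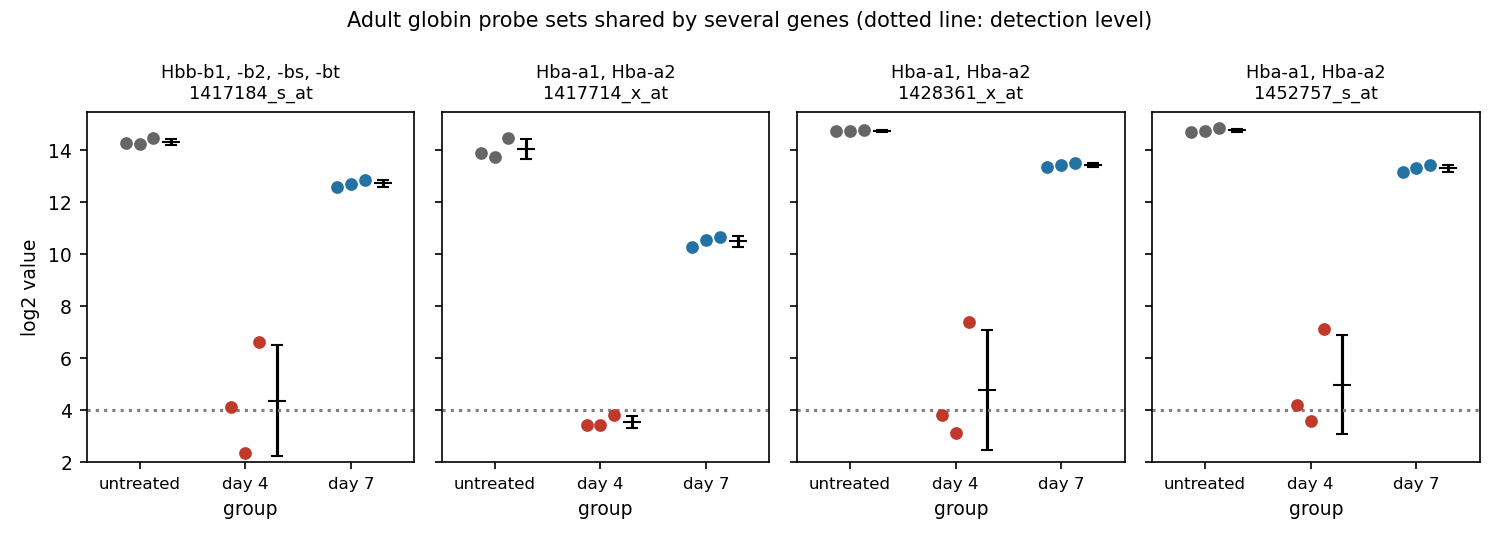
Log2 values on each array (points) with the mean and SD (bars, n = 3) for the 4 probe sets shared by several adult globin genes in untreated, day 4 and day 7 samples; the dotted line is the detection level of 4. Untreated samples lie between 13.76 and 14.85, day 4 between 2.38 and 7.42, and day 7 between 10.28 and 13.52.

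Other globin probe sets did not all follow this pattern. Hbb-y, an embryonic beta-like globin, read 6.44, 6.10 and 4.54 in untreated samples, 3.91, 3.72 and 2.53 at day 4, and 2.32 at day 7. It was below detection on every day 4 and day 7 array, and so at least 3.24-fold lower than untreated at both times. It reached 4 on the untreated arrays only and entered the test through them, so no p-value is given. A second probe set, 1436823_x_at, was also below detection at both times. Another, 1450621_a_at, was undetected, untreated arrays included, with values between 2.34 and 2.61. The Hbb-y signal in untreated samples was therefore not read by every probe set of this gene. For both detected Hbb-y probe sets untreated replicate 3, highest for Alas2 and Slc4a1, was the lowest untreated array. Hbb-b2 had 2 tested probe sets that disagreed. The dimmer 1427866_x_at read 4.81, 4.81 and 5.33 in untreated samples, 2.27 on each day 4 array, and 3.81, 3.66 and 3.82 at day 7, so it was detected in untreated samples only. The brighter 1427865_at read 5.77, 5.77 and 4.57 in untreated samples, 5.77, 5.65 and 5.77 at day 4, and 6.33, 6.27 and 6.02 at day 7. An identical value stood on 4 of the 9 arrays. It differed by 0.36 at day 4 (adjusted p 0.298) and 0.84 at day 7 (adjusted p 0.034). Without untreated replicate 3 these differences were -0.039 (adjusted p 0.786) and 0.44 (adjusted p 0.014). Hba-a2, Hba-x and Hbb-bh1 were undetected.

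Among enzymes of the late red cell, Car2, Bpgm and Cat were lower at day 4 and at day 7 than in untreated samples. Among all 10937 genes tested, each by its brightest probe set, 21.0% were called lower and 41.4% higher at day 4, and 21.7% lower and 31.6% higher at day 7. For day 7 against day 4 these shares were 16.5% and 9.34%. Of 9 listed enzyme genes 4 were tested, and 3 of them were lower at day 4 and at day 7, with a median difference over the 4 of -1.57 and -1.02, against 0.20 and 0.09 over all genes. Bpgm, which makes the 2,3-bisphosphoglycerate that loosens hemoglobin's hold on oxygen, read 9.57, 9.28 and 10.79 in untreated samples, 7.15, 7.38 and 6.99 at day 4, and 7.28, 7.30 and 7.59 at day 7. It differed by -2.71 at day 4 (adjusted p 1.5e-04) and -2.49 at day 7 (adjusted p 4.0e-04). Its difference of 0.22 between day 7 and day 4 did not pass (adjusted p 0.672). Car2, a carbonic anhydrase of red cells, was undetected at day 4, at least 4.76-fold lower than untreated, and at day 7 differed by -1.72 from untreated and was at least 1.44-fold higher than at day 4. Cat, catalase, differed by -0.44 and -0.32 and passed the test both times, and Prdx2, a peroxidase abundant in red cells, differed by 0.15 and 0.11 without passing. Car1, Pklr and Tspo2 were undetected. Car2, Bpgm and Cat are also used by other cells.

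Most genes of heme synthesis other than Alas2 were not lower. Of 8 listed genes 7 were tested, of which 4 were higher and 1 lower at day 4, and 2 higher and none lower at day 7. Over all genes 41.4% were higher and 21.0% lower at day 4, and 31.6% and 21.7% at day 7, so most genes of any kind were not called lower. The 7 heme synthesis genes had median differences of 0.32 and 0.11. Centring the arrays on thymic epithelial markers would lower every difference from untreated by 0.42, which turns these medians to -0.10 and -0.31 and those of iron and heme handling to -0.16 and -0.25, while the late red cell enzymes stay at -1.995 and -1.44. Alad, the second enzyme of the pathway, was higher by 1.03 at day 4 and 0.69 at day 7, and Uros by 0.65 at day 4. Alas1, the form of the first enzyme used in most tissues, differed by 0.29 and -0.11 and did not pass. The gene that fell was Fech, whose enzyme inserts iron into heme. It read 9.01, 8.96 and 10.40 in untreated samples, 8.35, 8.22 and 8.33 at day 4, and 8.48, 8.57 and 8.94 at day 7, and fell by 1.16 at day 4 (adjusted p 0.015), with a difference of -0.79 at day 7 that did not pass (adjusted p 0.077). Without untreated replicate 3 the day 4 difference was -0.69 and was still called.

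Of 21 listed iron and heme handling genes, 17 were tested, with 7 higher and 4 lower at day 4, where 41.4% of all genes were higher and 21.0% lower. At day 7, 4 were higher and 3 lower, where 31.6% of all genes were higher and 21.7% lower. These counts lie near the shares over all genes. Slc25a37, mitoferrin, the erythroid importer of iron into mitochondria, fell by 1.78 at day 4 and by 1.46 at day 7 (adjusted p 6.7e-04 and 0.0027). Its widely used relative Slc25a28 was higher by 0.65 at day 4. Cybrd1, an iron reductase, was higher by 0.70 at day 4 and 1.17 at day 7 (adjusted p 1.7e-04 at day 7). Slc40a1, the iron exporter ferroportin, was undetected at day 7 and at least 1.13-fold lower there than at day 4. Hfe, a partner of the transferrin receptor, was higher by 1.63 and 1.01, and Blvrb, a biliverdin reductase, by 1.28 and 0.60. Hmox1, which breaks heme down, fell by 0.67 at day 4 and was higher at day 7 than at day 4 by 1.11. Tfr2, the second transferrin receptor, was undetected.

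**Figure D4:**
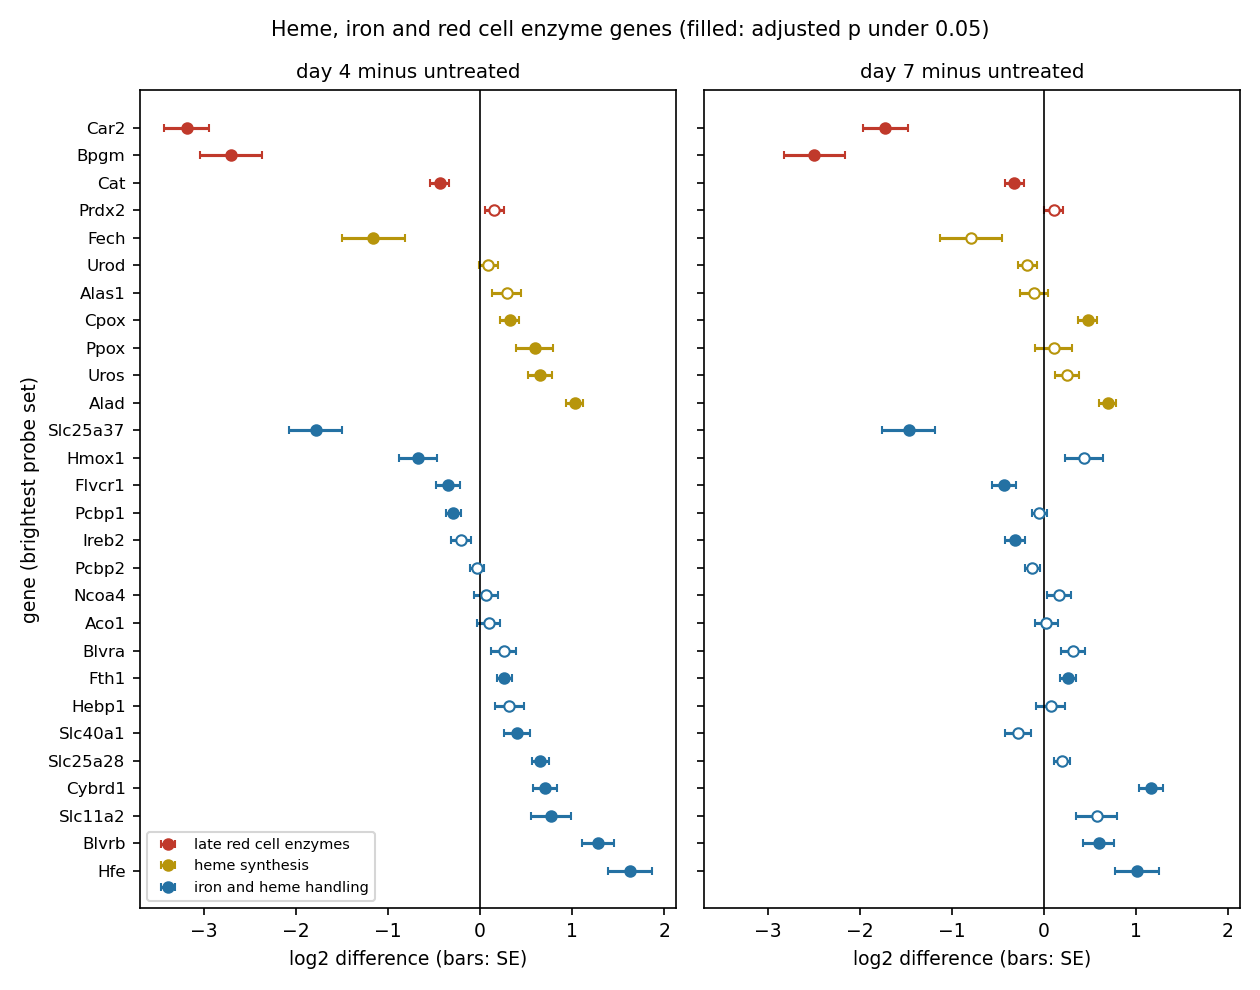
Difference in log2 value from untreated at day 4 and at day 7 for the 28 tested genes of heme synthesis, iron and heme handling and late red cell enzymes; bars are SE of the limma fit and filled points passed an adjusted p of 0.05. The largest falls are those of Car2, Bpgm, Slc25a37 and, at day 4, Fech, while Hfe, Blvrb and Alad lie above 0 in both panels.

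Of 17 red cell membrane genes besides Slc4a1, 13 had a single-symbol probe set, 9 of these were undetected and 3 were tested. Over the array, 10942 of 18194 genes with a single symbol had a tested probe set. The undetected genes were Ank1, Rhag, Rhd, Kel, Add2, Ermap, Icam4, Trim10 and Xk, which include the anchor of band 3 to the cytoskeleton (Ank1) and blood group proteins. One more lay at or above 4 on too few arrays to be tested, and none of the 3 tested genes was called lower. Over all genes 41.4% were higher and 21.0% lower at day 4, and 31.6% and 21.7% at day 7. The spectrin gene Sptb was undetected in untreated samples and at least 1.49-fold higher at day 4 and 1.35-fold higher at day 7. The tropomodulin gene Tmod1 was higher by 0.83 at day 4 and 0.58 at day 7. The water channel gene Aqp1 differed by 0.56 at day 4, which did not pass (adjusted p 0.352), and was higher by 2.54 at day 7. Without untreated replicate 3, Aqp1 was higher by 1.26 at day 4 (adjusted p 0.0015), which makes 3 of 3 genes higher there, and by 3.24 at day 7. Aqp1 is also used by endothelium, of which all 7 tested markers were higher at day 7. Over the 8 listed markers, with the undetected Tie1 included, array means were 7.02 to 7.12 at day 7 and 3.92 to 5.48 in untreated samples. The part of endothelial cells in the Aqp1 result was not tested.

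Of 11 transcription factor genes of the lineage besides Gata1 and Klf1, 7 were tested, with 3 higher and 3 lower both at day 4 and at day 7. Over all genes 41.4% were higher and 21.0% lower at day 4, and 31.6% and 21.7% at day 7. Tal1, Nfe2 and Gfi1b, partners or targets of Gata1 in red cell formation, were undetected. Myb, which serves progenitors of many blood lineages and thymocytes, differed by -5.47 at day 4 and -2.79 at day 7, both called. Bcl11a, which silences embryonic globins, was higher by 1.72 and 1.36, and Cbfa2t3, a corepressor, differed by -0.67 and -0.78 and passed both times. Lmo2 was higher by 1.11 at day 4 and 0.66 at day 7, and with untreated replicate 3 left out the day 7 value did not pass (0.61, adjusted p 0.058). Downstream of the undetected Epor, 8 of 12 listed genes of erythropoietin signalling were tested, of which 2 were higher and 3 lower at each time, against the same shares over all genes. Stat5b differed by -1.43 and -1.19, Stat5a by -0.80 and -1.10 and Bcl2l1, a survival gene, by -0.91 and -0.85, while Socs3, a feedback inhibitor of cytokine signalling, was higher by 1.70 at day 7. These genes act in many other cell types.

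Untreated replicate 3 stood above the other untreated arrays for several of these genes. Against the mean of untreated replicates 1 and 2 it was higher by 1.41 for Fech, 1.36 for Bpgm, 1.11 for Slc25a37 and 0.89 for Car2. It was the highest of the 9 arrays for 3 of the 4 tested late red cell enzymes, 1 of 7 heme synthesis, 2 of 17 iron and heme handling, 3 of 7 transcription factor and 1 of 8 erythropoietin signalling genes, against 13.2% of all 10937 genes. It was the highest for none of the 3 tested red cell membrane and 2 other globin genes. Its endothelial marker mean, 5.48, was also the highest of the untreated arrays. Without it, the late red cell enzymes called lower numbered 3 at day 4 and 2 at day 7 (Cat was lost, adjusted p 0.073), the transcription factors called higher at day 7 numbered 2 in place of 3, and in heme synthesis 3 genes in place of 1 were lower at day 7 than at day 4. In erythropoietin signalling 1 gene in place of 2 was then higher at day 4, and 1 in place of none was lower at day 7 than at day 4. In heme synthesis 3 genes in place of 4 were higher at day 4. In iron and heme handling 6 in place of 7 were higher and 3 in place of 4 lower at day 4, and 3 in place of 2 were higher at day 7 than at day 4. Of the other globins, Hbb-b2 by 1427865_at was then called higher at day 7 than at day 4. A call of Hbb-y in that comparison is not counted, since both groups were below detection. The shares over all genes in the fit without this array are not given here. Shifts in these counts are therefore not read as results about the lists.

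Across the 9 arrays the brightest probe sets of Alas2 and Tfrc correlated at a Pearson r of 0.989, Alas2 and Slc4a1 at 0.846, and Slc4a1 and Tfrc at 0.839. These are descriptions over 9 arrays that share 3 groups. The genes most like Alas2 were Nrip1 (0.999), Tk1 (0.997), Tent5c (0.994), Lrr1 (0.993) and Zbtb1 (0.991), of which Tk1, thymidine kinase, serves DNA synthesis in dividing cells. Those most like Tfrc were Nup210 (0.998), Cep83 and Gimap1 (both 0.997), Nrros and Exosc8 (both 0.996). Those most like Slc4a1 were Hspd1 (0.978), Zfand2a and Nolc1 (both 0.976), Siah2 and Klf2 (both 0.975).

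Over the arrays as a whole, between 42.1% and 44.2% of probe sets lay at or above 4 and between 26.1% and 27.2% at the lowest value. The 3-prime minus 5-prime value of the Actb control probe sets, a sign of RNA quality, was 2.16 to 2.45 in untreated samples, 3.01 to 3.32 at day 4 and 2.303 to 2.71 at day 7. Thymic epithelial markers averaged 11.61 to 11.69 in untreated samples, 12.03 to 12.10 at day 4 and 12.01 to 12.11 at day 7. The part of RNA quality in the day 4 values was not tested.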

How the data were processed

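Total RNA of 9 samples of CD45-depleted mouse thymus, 3 per group, was hybridised to 1-colour Affymetrix arrays. The deposited table gave 1 log2 value per probe set and array, and the submitters' processing notes name GCRMA, which corrects background, normalizes between arrays and summarises probes. The values have a floor at 2.27 at which differences are compressed. The GCRMA version and the log base are not stated there, and the base was taken from the range of the values.

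Of 45101 probe sets, 34958 had exactly 1 symbol in the platform annotation, 932 had several and 9211 had none, and 34754 matched the RefSeq gene table. The test took 17826 probe sets of 10942 genes that reached 4 on 3 or more arrays. One limma 3.58.1 model (lmFit and eBayes, R 4.3.3) held all 9 arrays with the group as its term, and p-values were adjusted by Benjamini-Hochberg over all probe sets tested, with calls at 0.05. A fold against a group below 4 on every array is a bound computed from 4. Lists of pathway and marker genes used the brightest probe set of each gene, outside control probe sets. The text names every probe set of the 9 genes, pathway list genes among the up to 3 called with the smallest adjusted p per list and comparison, and the 5 genes most correlated with each detected member. The rule also covered marker lists, whose genes are mostly summarised by counts. Prdx2, Alas1, Csf1r and the undetected list genes were named after their values were seen. The fit of all probe sets with any symbol, which covers the shared globins, and the list counts without untreated replicate 3 were added after the values were seen. The members and lists were chosen with earlier results of these data known. The model was tested on simulated data. Figures used Python 3.11 and matplotlib 3.10.9. The number of arrays limits the precision.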

Additional observations from a re-analysis of the deposited data

How the results depend on the processing

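The 12 differences of the 4 detected probe sets kept their direction and their side of the threshold in 237 of 240 alternative values, which covered the filter, the scaling, the treatment of several probe sets, the fit, and leaving out each replicate. The exceptions were Alas2 for day 7 against day 4 with no filter on dim probe sets (2.14, adjusted p 0.061), Slc4a1 1416464_at for day 7 against untreated with the arrays centred on thymic epithelial markers (-1.02, adjusted p 0.048, now called), and Slc4a1 1434502_x_at for day 7 against untreated without untreated replicate 3 (0.067, adjusted p 0.861, a turned direction). Over all replicates left out in turn that difference ran from -0.85 to 0.067. The shared globin differences kept theirs in 209 of 216 values. The other 7 became called for day 7 against untreated. These were -1.61, -1.31 and -1.46 with only the 6 arrays compared, -1.61 without day 4 replicate 2 (adjusted p 0.038), and -1.61, -1.31 and -1.46 without day 4 replicate 3 (adjusted p 0.0091, 6.4e-04 and 3.8e-04). Leaving out each replicate gave -1.68 to -1.53 for beta-globin, -1.34 to -1.27 for 1428361_x_at and -1.52 to -1.39 for 1452757_s_at. The cause was not tested beyond the smaller spread among fewer day 4 arrays.

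Counts of called probe sets were 10940, 9352 and 4343 in the 3 comparisons. With 1 brightest probe set per gene they were 6916 and 5915 in both comparisons with untreated, and with each gene's probe sets averaged 6263, 5476 and 2614, since fewer features were tested. With no filter the count for day 7 against day 4 was 2679, and leaving out 1 replicate gave 2321 to 5063, with 2822 without day 4 replicate 1, 2592 without day 4 replicate 2, 2321 without day 7 replicate 2 and 2691 without day 7 replicate 3. Centring on thymic epithelial markers gave shares of higher calls of 29.0%, 19.0% and 40.0% in place of 62.7%, 57.3% and 40.7%, with the median of all probe sets at -0.26 and -0.34 in both comparisons with untreated. Quantile scaling gave 51.5% for day 7 against day 4. With the replicate number as a block the counts were 10519, 8789 and 3661 and no call of the 4 probe sets changed. Same-numbered samples correlated between -0.11 and 0.16 in their deviations from the group means, and differently numbered ones between -0.24 and 0.20. Deviations from a mean of 3 arrays cancel within each group, so this check cannot exclude that the numbers pair the samples. The 4 detected probe sets were the same number at a level of 3 and at a level of 6, where 1 array sufficed. At 6, both Slc4a1 probe sets counted through untreated replicate 3 alone (7.22 and 6.77). They did not reach 6 on 3 arrays, so the fit at that level held only Alas2 and Tfrc.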

Other observations

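The single-symbol probe sets cover the lineage unevenly. Hemoglobin is read almost wholly through probe sets shared by several genes, and Klf1, Epor and Gata1 have 1 probe set each, all near the lowest value. A probe set at that value can lack signal because its probes read the transcript poorly, which these data cannot settle. The depletion was against CD45 and no red cell count accompanies the samples. Material of several mice was pooled, so variation between mice was not measured, and with 3 arrays per group the error of each difference rests on few values.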
